A study of Bos taurus with 10 samples.

Results

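Genes of DNA replication and the cell cycle were examined in mammary tissue of lactating cows, in glands next to an infected gland and in glands of healthy cows. The genes were listed by name, with earlier results of these data known. They were 30 genes of the replication machinery and nucleotide supply, 10 genes of the G1 phase, 13 mitotic genes and 6 inhibitor and GADD45 genes, 59 in all. Of these, 51 had a named probe set, a group of short probes for the same transcript, with 68 probe sets among the 24016 of the array. MCM2, GINS1, GINS2, POLE, CDK6, TOP2A, MKI67 and CDKN1B were not matched to a probe set here.

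A cell that divides loads the MCM helicase onto replication origins in G1, copies its DNA in S phase with polymerases, a sliding clamp and the clamp loader, and separates the chromosomes in mitosis. Cyclins with their kinases drive these steps, and inhibitor proteins such as p21 (CDKN1A) hold the kinases back. Several of the replication proteins also serve DNA repair, and the mRNAs of most mitotic genes are abundant only in cells that are about to divide.

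The neighboring group held tissue of glands without bacteria from 5 cows in which another gland of the same udder had been given 500 CFU of the mastitis isolate E. coli 1303 (Escherichia coli) in 2 ml of saline 24 h before. The control group held tissue from 5 healthy cows that had not been inoculated. All 10 animals were primiparous German Holstein Frisian cows in mid-lactation, healthy before the trial. Their oestrus was synchronized and their udders were milked out with oxytocin. The paper reports acute mastitis, fever and a low blood leukocyte count in the inoculated cows before sampling. Each cow gave 1 array. Neighboring samples 1, 2, 3 and 5 were pools of a saline-treated and an untreated gland, neighboring 4 was a single untreated gland, controls 1, 2 and 4 were pools of a pair of glands, and controls 3 and 5 were single glands. The tissue was whole, so fewer cells of a type and less RNA per cell cannot be told apart.

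Values were log2 RMA signals, and array medians differed little, from 6.25 to 6.27. The main comparison used 4 arrays of each group. Neighboring 5, which the methods of the study name a biological outlier, and control 3, named a technical outlier, were left out of this fit, and the values with all 10 arrays are given beside it. The words rose and fell are used for a limma adjusted p under 0.05 over the 14410 probe sets that passed a filter on low signal. Each gene stood with its brightest probe set that passed. Differences are neighboring minus control on the log2 scale, with the moderated SE. The 18 hybridization control probe sets, for RNA added at the hybridization, averaged 10.20 to 10.43 on the 4 neighboring arrays of the fit, against 10.42 to 10.84 on its 4 control arrays. With that average as a covariate the calls over the array numbered 251 (1.74%), against 4283 (29.7%) without it.

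Casein and other secretory genes marked the tissue of both groups as lactating mammary gland: CSN2, a casein gene, averaged 14.77 ± 0.02 in neighboring and 14.68 ± 0.06 in control glands (SD, n = 4 each). Over all genes that passed the filter 20.2% were called higher in neighboring glands and 11.5% lower. Of the marker genes of other cell types that passed, 2 of 3 neutrophil genes were higher. Lower were 4 of 7 T and NK cell, 2 of 7 macrophage, 4 of 6 myoepithelial and 3 of 6 fibroblast genes. Of those 6 fibroblast genes 1 was higher, and of 6 genes shared by leukocytes 0 passed the test in limma (0 at an unadjusted p under 0.05). FABP4, the only adipocyte gene that passed the filter, differed by -1.10 (adjusted p = 0.000772). Of 11 secretory genes KRT19 was higher (1.10, adjusted p = 0.00602) and XDH lower (-0.35, adjusted p = 0.0357). With all 10 arrays FABP4 and KRT19 did not pass (adjusted p = 0.128 and 0.0771). The 4 T and NK cell calls were lost there too, with adjusted p of 0.0701 to 0.159, so 0 of those 7 genes were lower. In that fit 2 of 7 macrophage, 3 of 6 myoepithelial and 4 of 6 fibroblast genes were lower, and 2 of 3 neutrophil genes were higher. The summed linear signal of the neutrophil list was 482 to 1049 on the neighboring arrays, against 247 to 338 on the control arrays. Its rise lay in S100A8 (2.42) and S100A12 (1.98), whereas S100A9 differed by 0.17 (adjusted p = 0.221), and CXCR1, MPO and FCGR3A, under the filter, by -0.04, -0.25 and -0.43. For the T and NK cell list it was 539 to 1040 on neighboring and 813 to 1078 on control arrays, and for the fibroblast list 4216 to 8010 on neighboring and 8877 to 12978 on control arrays. The part of these cell types in the results below was not tested.

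Of the 51 measured genes, 38 passed the filter and 13 did not. In the neighboring glands 14 of the 38 rose and 1 fell, where 20.2% of the 7055 genes that passed rose and 11.5% fell. The median difference was 0.25 over the 38 genes and 0.06 over all genes that passed. The rises lay mainly among the replication genes, 11 of 22, with 2 of 7 G1 genes, 0 of 5 mitotic genes and 1 of 4 inhibitor and GADD45 genes beside them. The single fall was GADD45B. With all 10 arrays 9 of the 38 rose and 1 fell, against 8.26% and 5.02% of all genes that passed. The groups did not overlap over all 10 arrays for 5 of the 38 genes, MCM5, MCM7, ORC2, RFC4 and RPA2, each higher in neighboring glands, where 4.56% of all genes that passed were higher without overlap and 2.98% lower.

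**Figure D1:**
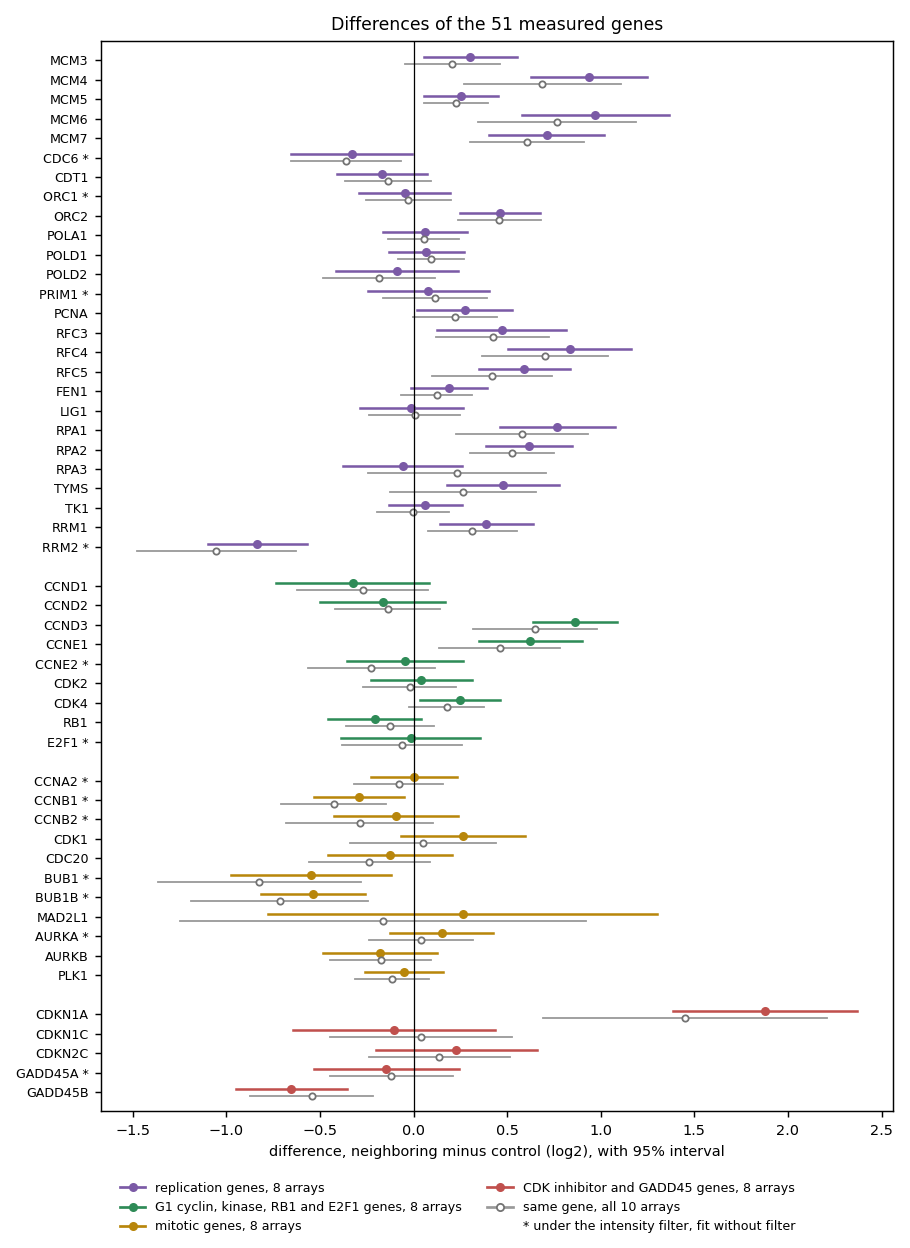
Difference of each of the 51 measured genes, neighboring minus control, in log2 units with 95% intervals, in the order replication, G1, mitotic and inhibitor genes. Coloured points are the fit of 8 arrays, open points the fit of all 10 arrays, and a star marks the 13 genes under the intensity filter. The replication block lies mostly to the right of 0, with RRM2 farthest to the left, and CDKN1A has the largest difference, 1.88.

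Of the helicase and origin genes, 4 of the 7 that passed the filter rose, with a median difference of 0.46, among them MCM6 and MCM4, which had the largest differences of the replication genes. MCM4, a subunit of the replicative helicase, read 7.84, 7.27, 7.58, 7.21 and 6.67 on neighboring arrays 1 to 5, against 6.54, 6.46, 6.98, 6.65 and 6.50 on control arrays 1 to 5. Every neighboring array of the fit lay above every control, while neighboring 5 lay below control 3. The difference was 0.94 ± 0.14 (SE), or 1.92-fold (limma, adjusted p = 0.00127), and 0.69 with all 10 arrays (adjusted p = 0.0413). MCM6, another subunit of the ring, read 7.13, 6.65, 6.93, 6.83 and 6.27 in neighboring glands, against 6.18, 5.58, 6.33, 6.28 and 5.61 in control glands. The controls split into a lower pair and 3 higher arrays, and neighboring 5 again fell among the controls. MCM6 rose 1.96-fold (difference 0.97 ± 0.18, adjusted p = 0.00333), and its second probe set, under the filter, was 0.75 ± 0.11 higher in the fit without filter (adjusted p = 0.00167).

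MCM7 read 8.93, 8.57, 9.01, 9.18 and 8.47 in neighboring glands, against 8.18, 8.45, 8.27, 8.12 and 8.11 in control glands. All 5 neighboring values stood above all 5 control values, by the smallest margin between neighboring 5 and control 2. The rise was 1.64-fold (0.71 ± 0.14, adjusted p = 0.00471). ORC2, a subunit of the origin recognition complex on which the helicase is loaded, read 8.16, 8.02, 8.03, 8.23 and 7.85 in neighboring glands, against 7.79, 7.59, 7.41, 7.65 and 7.57 in control glands. The groups did not overlap, and the rise of 0.46 ± 0.10 (1.38-fold, adjusted p = 0.00646) was as large with all 10 arrays, 0.46. A second ORC2 probe set, under the filter with a mean of 4.39, differed by -0.14.

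The other helicase subunits moved less. MCM5 read 6.93 to 7.13 in neighboring and 6.79 to 6.91 in control glands. Its groups did not overlap, but the difference of 0.25 ± 0.09 missed the threshold (adjusted p = 0.053) and passed it without neighboring 4 (adjusted p = 0.0416). MCM3 differed by 0.30 ± 0.11 (adjusted p = 0.0645) and CDT1, a loading factor of the helicase, by -0.17 ± 0.11 (adjusted p = 0.258). The loading factor CDC6 (mean 5.14) and the origin subunit ORC1 (mean 3.26) were under the filter, with differences of -0.33 and -0.05 that did not pass without it.

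**Figure D2:**
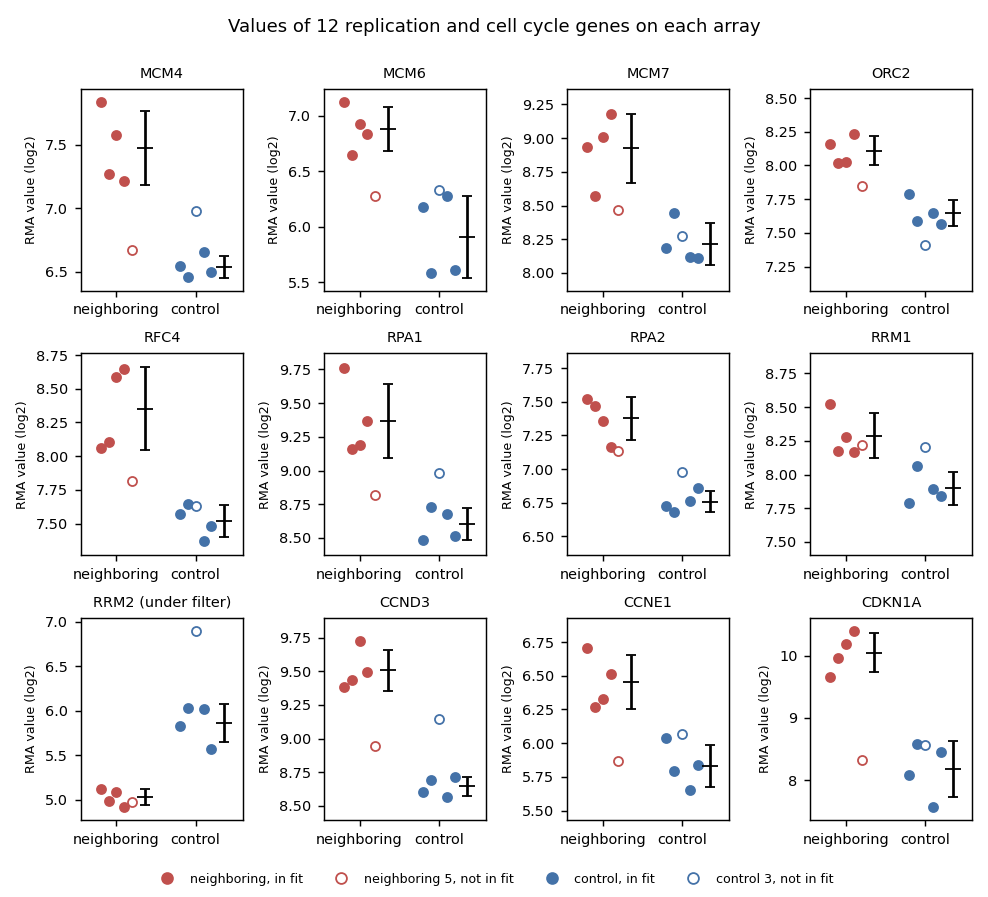
RMA values (log2) of 12 genes on each array, neighboring left and control right in each panel, with the mean and SD of the 4 arrays of the fit beside the points; open circles are the arrays left out of it. In 11 panels the filled neighboring points stand above the filled control points, and in the RRM2 panel all 5 neighboring points, 4.92 to 5.12, stand below the controls, 5.57 to 6.90.

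Of the 4 clamp and clamp loader genes of the set 3 rose, with a median difference of 0.53, and of its 3 polymerase genes above the filter 0 passed by the brightest probe set. RFC3, RFC4 and RFC5 encode small subunits of replication factor C, which opens the PCNA ring and closes it around DNA. RFC4 read 8.06, 8.11, 8.58, 8.65 and 7.82 in neighboring glands, against 7.57, 7.64, 7.63, 7.37 and 7.48 in control glands. The groups did not overlap on any array, and neighboring 3 and 4 were the highest. RFC4 rose 1.78-fold (0.83 ± 0.15, adjusted p = 0.00297; 0.70 with all 10 arrays, adjusted p = 0.0259).

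RFC5 read 7.75, 8.08, 8.17, 8.03 and 7.35 in neighboring glands, against 7.55, 7.40, 7.62, 7.37 and 7.35 in control glands. Neighboring 5 (7.348) stood just below the lowest control (7.355), while the other neighboring arrays stood above every control. The rise of 0.59 ± 0.11 (1.51-fold, adjusted p = 0.0037) did not pass with all 10 arrays (0.42, adjusted p = 0.0771), and the dimmer probe set of the gene differed by 0.24 (adjusted p = 0.217). RFC3 read 7.51, 7.88, 8.26, 8.18 and 7.71 in neighboring glands, against 7.50, 7.41, 7.47, 7.62 and 7.42 in control glands. Neighboring 1 lay inside the control range. The rise of RFC3 was 1.39-fold (0.47 ± 0.16, adjusted p = 0.0431), and it missed the threshold with all 10 arrays (adjusted p = 0.062) and when any array of the fit other than neighboring 1 was left out, with adjusted p of 0.0603 (without control 4) to 0.116 (without neighboring 3).

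PCNA, the sliding clamp itself, read 9.19, 9.43, 9.57, 9.66 and 9.34 in neighboring glands, against 9.25, 9.22, 9.33, 9.19 and 9.09 in control glands. The groups overlapped through neighboring 1 alone. The difference was 0.27 ± 0.11, with a 95% interval of 0.02 to 0.53 (adjusted p = 0.0947), and it passed the threshold without neighboring 1 (adjusted p = 0.0184). Among the polymerases, the brighter probe set of POLA1, the catalytic subunit of polymerase alpha, differed by 0.06 ± 0.10, POLD1 by 0.07 and POLD2 by -0.09. None of the 3 passed (0 at an unadjusted p under 0.05). A dimmer POLA1 probe set that passed the filter was 0.36 ± 0.10 higher (adjusted p = 0.0181; adjusted p = 0.0502 with all 10 arrays), where 17.7% of the probe sets above the filter rose, so the probe sets of this gene did not give the same call. The primase gene PRIM1 lay under the filter (mean 3.83) and differed by 0.08 without it.

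Replication protein A covers single-stranded DNA behind the helicase and during repair, and the genes of its larger subunits rose. RPA1 read 9.76, 9.16, 9.19, 9.37 and 8.82 in neighboring glands, against 8.49, 8.73, 8.98, 8.68 and 8.51 in control glands. Neighboring 1 was the highest array, and only the pair left out of the fit crossed. RPA1 rose 1.70-fold (0.77 ± 0.14, adjusted p = 0.00326; 0.58 with all 10 arrays, adjusted p = 0.0406). RPA2 read 7.52, 7.47, 7.36, 7.16 and 7.14 in neighboring glands, against 6.73, 6.68, 6.98, 6.76 and 6.86 in control glands, without overlap. It rose 1.54-fold (0.62 ± 0.10, adjusted p = 0.0023), while its other probe set that passed the filter differed by 0.24 (adjusted p = 0.156). RPA3, the smallest subunit, differed by -0.06 ± 0.14. FEN1, which trims the flaps of Okazaki fragments, differed by 0.19 ± 0.09 (adjusted p = 0.136) and LIG1, which joins them, by -0.01.

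The genes of nucleotide supply changed in both directions. TYMS, the thymidylate synthase, read 6.31, 6.44, 6.04, 6.54 and 6.03 in neighboring glands, against 5.83, 6.13, 6.62, 5.75 and 5.70 in control glands. The groups overlapped, and control 3 was the highest array of all. The rise of 0.48 ± 0.14 (1.39-fold, adjusted p = 0.0238) was 0.27 with all 10 arrays (adjusted p = 0.31). It was also lost without neighboring 2 or 4 or without control 1, 4 or 5, with adjusted p of 0.0535 to 0.0631. TK1, the thymidine kinase of S phase, differed by 0.06 ± 0.09.

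Ribonucleotide reductase makes deoxynucleotides from ribonucleotides and needs a large subunit, RRM1, and a small subunit, RRM2, of which the small one is known to be made mainly in S phase. RRM1 read 8.52, 8.18, 8.28, 8.17 and 8.22 in neighboring glands, against 7.79, 8.07, 8.20, 7.89 and 7.84 in control glands. All 5 neighboring arrays lay above the 4 controls of the fit, with control 3 among them. RRM1 rose 1.31-fold (0.39 ± 0.11, adjusted p = 0.0248), a call lost with all 10 arrays (adjusted p = 0.0713) and without neighboring 3 or without control 1, 4 or 5 (adjusted p of 0.0558 to 0.0655).

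RRM2 had a mean of 5.54, under the filter, and was fitted without it, where 11.1% of the 24016 probe sets rose and 9.21% fell. It read 5.12, 4.99, 5.08, 4.92 and 4.97 in neighboring glands, against 5.83, 6.03, 6.90, 6.02 and 5.57 in control glands. The neighboring values lay close together and all below the lowest control, and control 3 stood far above the other controls. The difference was -0.83 ± 0.12, a ratio of 0.561 (adjusted p = 0.00125), the 360th lowest of the 24016. With all 10 arrays it was -1.05 ± 0.19 (adjusted p = 0.0216), where 3.04% fell. The call also stood when the hybridization signal entered as a covariate (-1.12, adjusted p = 0.0287), where 0.396% of all probe sets fell. In that fit of all probe sets RRM2 was the only 1 of the 26 measured replication genes to pass in limma (9 at an unadjusted p under 0.05). In the fit of the probe sets above the filter with the covariate, 0 of 22 replication genes passed (8 at an unadjusted p under 0.05), against 11 without the covariate, and what lies behind the loss was not tested.

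Among the G1 genes the D and E cyclins did not move together. CCND3, a D cyclin that is prominent in lymphoid and differentiating cells, read 9.38, 9.43, 9.72, 9.49 and 8.95 in neighboring glands, against 8.61, 8.69, 9.15, 8.57 and 8.72 in control glands. The groups of the fit were separate, and the arrays left out of it, neighboring 5 and control 3, lay between them. CCND3 rose 1.82-fold (0.86 ± 0.10, adjusted p = 0.000436; 0.65 with all 10 arrays, adjusted p = 0.028). CCND1, the D cyclin best known from mammary epithelium, read 6.03, 6.59, 6.04, 5.76 and 6.14 in neighboring glands, against 6.43, 6.20, 6.20, 6.81 and 6.28 in control glands. Neighboring 2 was above 4 of the controls and the groups overlapped. The difference of CCND1 was -0.33 ± 0.18, with a 95% interval of -0.73 to 0.08 (adjusted p = 0.201, and 0.0462 without neighboring 2), and that of CCND2 was -0.17 (adjusted p = 0.423).

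CCNE1, which with CDK2 starts S phase, read 6.71, 6.27, 6.33, 6.51 and 5.87 in neighboring glands, against 6.04, 5.79, 6.07, 5.66 and 5.84 in control glands. Neighboring 5 lay inside the control range. CCNE1 rose 1.54-fold (0.62 ± 0.12, adjusted p = 0.00515), with a smaller 0.46 over all 10 arrays (adjusted p = 0.0605), and its dimmer probe set differed by 0.35 (adjusted p = 0.205). Of the kinases, CDK4, the partner of the D cyclins, differed by 0.25 ± 0.10 (adjusted p = 0.0741, and 0.0287 without neighboring 1) and CDK2 by 0.04. RB1, the retinoblastoma protein that keeps E2F factors inactive, read 7.72, 8.03, 8.08, 7.82 and 8.12 in neighboring glands, against 8.28, 8.07, 7.92, 8.12 and 8.01 in control glands. These ranges overlapped, and the difference was -0.21 ± 0.11, with an interval of -0.46 to 0.04 (adjusted p = 0.18). E2F1 (mean 4.16) and CCNE2 (mean 3.96) lay under the filter with differences of -0.02 and -0.05. With the hybridization covariate 0 of the 7 G1 genes passed (2 at an unadjusted p under 0.05).

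The mitotic genes were mostly dim, and those above the filter did not pass the test. Of the 11 measured, 6 lay under the filter, and of the 5 above it 0 passed the test in limma (0 at an unadjusted p under 0.05), with a median difference of -0.05. CDK1, the kinase that drives entry into mitosis, read 6.97, 7.26, 7.44, 6.78 and 6.57 in neighboring glands, against 7.02, 6.88, 7.38, 6.88 and 6.61 in control glands. The ranges covered each other almost wholly. The difference was 0.26 ± 0.15, with an interval of -0.07 to 0.60 (adjusted p = 0.204), and 0.05 with all 10 arrays. CDC20, which activates the anaphase-promoting complex, differed by -0.13 ± 0.15, and the mitotic kinases AURKB and PLK1 by -0.18 ± 0.14 and -0.05 ± 0.09. The interval for PLK1, -0.26 to 0.16, was the narrowest of the 5. MAD2L1, a spindle checkpoint gene, varied between 4.50 and 6.89 over the controls of the fit, so its difference of 0.26 ± 0.47 left a wide interval.

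Under the filter, BUB1B, another spindle checkpoint gene, read 4.31, 4.05, 4.13, 4.55 and 4.52 in neighboring glands, against 4.74, 4.98, 5.95, 4.75 and 4.71 in control glands. The groups did not overlap, where 3.21% of all probe sets were lower without overlap. In the fit without filter, where 11.1% of all probe sets rose and 9.21% fell, BUB1B fell by 0.54 on the log2 scale (SE 0.13, adjusted p = 0.0135). Its difference was -0.72 with all 10 arrays (adjusted p = 0.0636). BUB1 differed by -0.55 ± 0.20 (adjusted p = 0.0695) and CCNB1, the mitotic B cyclin, by -0.29 ± 0.11 (adjusted p = 0.0831), with means of 3.31 and 3.72. CCNA2 (mean 4.22) and CCNB2 (mean 5.01) differed by 0.00 and -0.09. The brighter AURKA probe set differed by 0.15 (adjusted p = 0.41), while a dimmer one with a mean of 4.53 was 0.41 ± 0.12 higher (adjusted p = 0.0352), a call lost without any of neighboring 1 to 4 or without control 1 or 2 (adjusted p of 0.0554 to 0.0787).

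**Figure D3:**
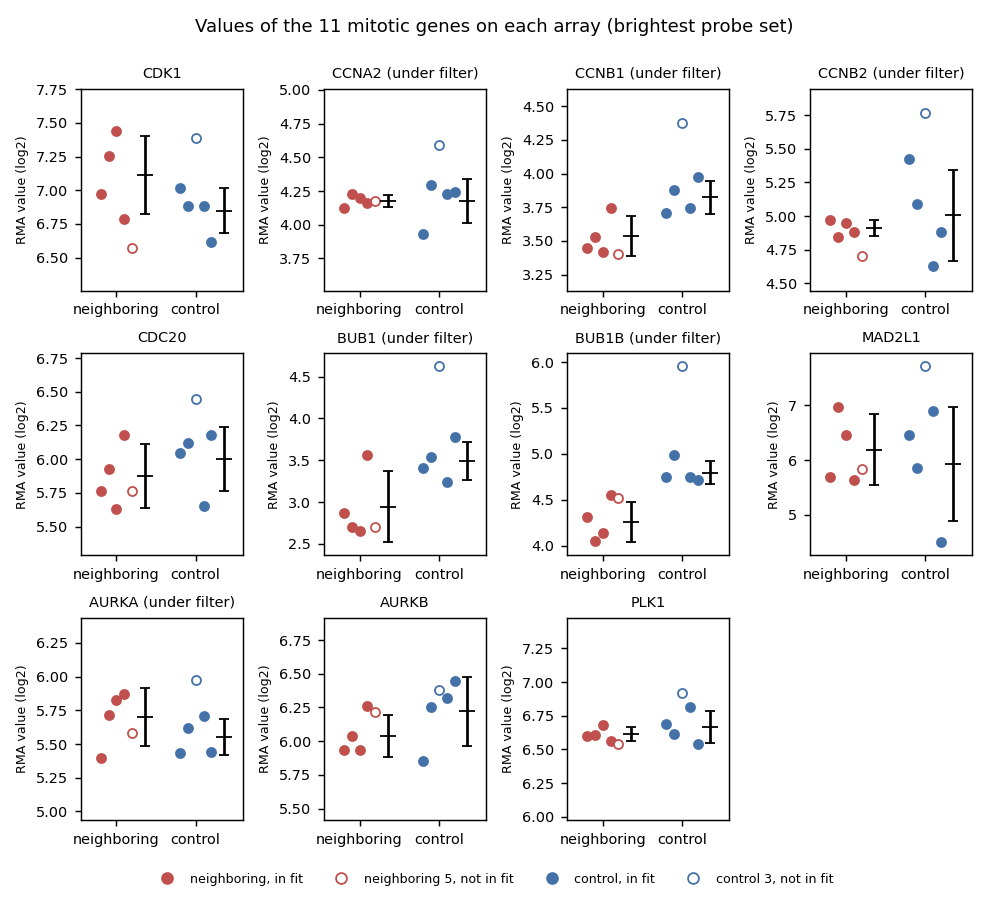
RMA values (log2) of the brightest probe set of each of the 11 mitotic genes on each array, neighboring left and control right, with the mean and SD of the 4 arrays of the fit; open circles are the arrays left out of it. Control 3, the open blue circle, is the highest control in 10 of the 11 panels, and CDK1 spans 6.57 to 7.44 in neighboring and 6.61 to 7.38 in control glands.

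Control 3 stood apart most in the mitotic genes. It was the highest of the 5 controls for 10 of the 11 genes and for 13 of their 14 probe sets (92.9%), against 6501 of all 24016 probe sets (27.1%). It was also the highest control for 15 of the 26 measured replication genes (57.7%) and 5 of the 9 G1 genes (55.6%). For the 5 inhibitor and GADD45 genes the count was 0. Its median deviation from the mean of the other 4 controls was 0.54 over the 11 mitotic genes. It was 0.16 over the 26 replication genes and 0.23 over the 9 G1 genes. BUB1B read 5.95 there, against at most 4.98 on the other controls, and RRM2 was also highest on that array. Since control 3 was left out of the fit, the differences of the mitotic genes above do not hold it, and each of them that was negative became more so with all 10 arrays except that of AURKB.

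The inhibitor genes held the largest change of the whole set. CDKN1A, which encodes p21, an inhibitor of cyclin-dependent kinases that also binds PCNA, read 9.66, 9.96, 10.18, 10.40 and 8.32 in neighboring glands, against 8.09, 8.58, 8.57, 7.57 and 8.45 in control glands. The 4 neighboring arrays of the fit lay more than 1 log2 unit above the highest control, and neighboring 5 lay within the control range. CDKN1A averaged 10.05 ± 0.31 in neighboring and 8.17 ± 0.45 in control glands (SD, n = 4 each). The rise was 3.67-fold (difference 1.88 ± 0.22, limma, adjusted p = 0.000444), the 53rd highest of the 14410 probe sets, and 1.45 ± 0.35 with all 10 arrays (adjusted p = 0.0296). It was the only gene of the set past the stricter rule of the study, an adjusted p under 0.01 with a change over 2-fold, which 1.71% of the probe sets passed upwards, and it kept its call with the hybridization covariate (adjusted p = 0.0114).

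CDKN1C, the inhibitor p57, read 8.05, 9.03, 9.37, 9.22 and 9.30 in neighboring glands, against 9.19, 9.02, 8.68, 9.03 and 8.84 in control glands. Neighboring 1 was far below all other arrays, and the rest overlapped. The difference was -0.10 ± 0.24, and -0.30 ± 0.12 for a dimmer probe set above the filter (adjusted p = 0.0877). CDKN2C, an inhibitor of CDK4 and CDK6, differed by 0.23 ± 0.19 (adjusted p = 0.388). GADD45B, a stress sensor upstream of p38 and JNK kinases, read 7.61, 7.63, 7.45, 7.52 and 8.16 in neighboring glands, against 8.33, 8.14, 8.27, 8.49 and 7.86 in control glands. The groups of the fit did not overlap, and neighboring 5 lay inside the control range. GADD45B fell by 0.65 (SE 0.13, a ratio of 0.636, adjusted p = 0.00584), and the difference was -0.54 with all 10 arrays (adjusted p = 0.0406). GADD45A lay under the filter (mean 1.99) and differed by -0.14.

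**Figure D4:**
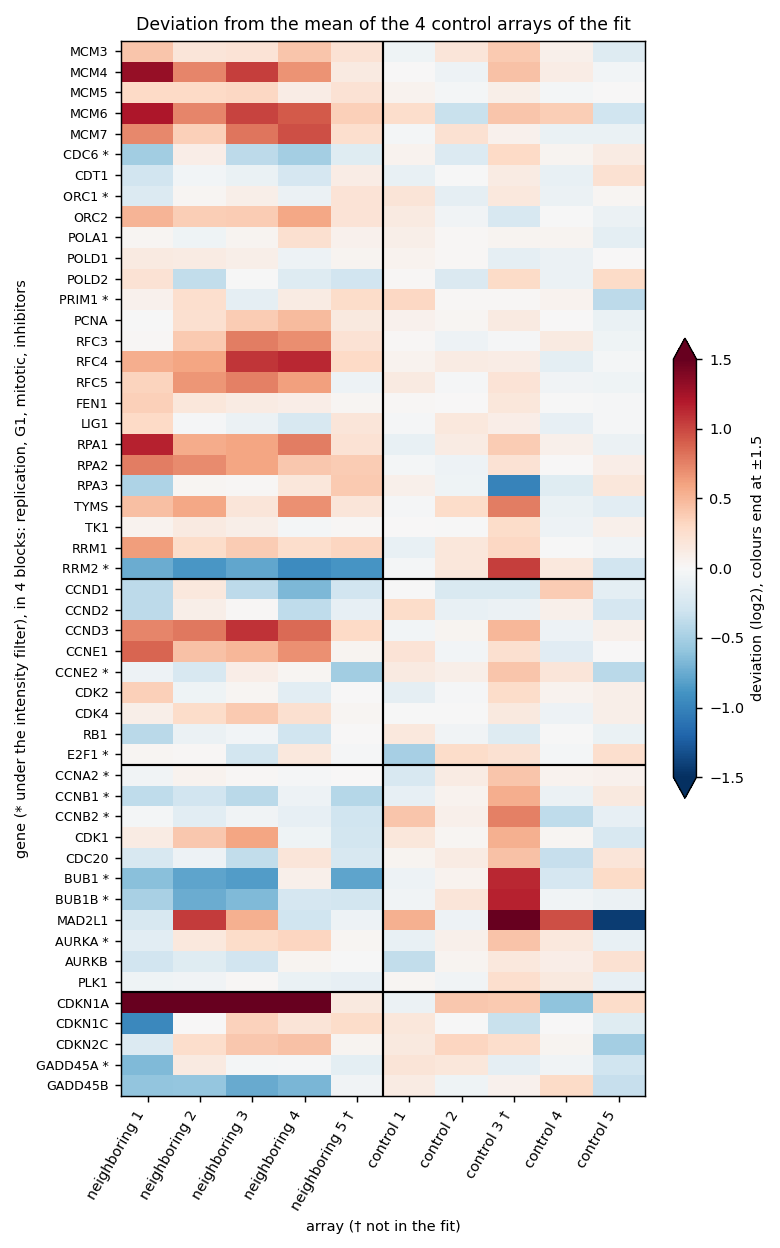
Deviation of each of the 51 genes from the mean of the 4 control arrays of the fit, in log2 units, with arrays in columns (neighboring left, control right) and genes in the order replication, G1, mitotic and inhibitor genes; colours end at ±1.5, daggers mark arrays left out of the fit and stars genes under the filter. The rises of the helicase, clamp loader and CDKN1A genes lie in the first 4 columns, except for RFC3 on neighboring 1, and are pale in neighboring 5. The mitotic block is warm in control 3, with a median deviation of 0.54.

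Neighboring 5 took no part in the fit. In the median of the replication genes above the filter it lay nearer to the controls than the other neighboring arrays did. Over the 22 replication genes above the filter, called or not, its median deviation from the control mean was 0.19, against 0.29 to 0.41 on the other 4 neighboring arrays. It was the lowest neighboring array for 10 of the 22, and for 4457 of all 14410 probe sets above the filter. Control 3 deviated by 0.15 over the same 22 genes. Over all 26 measured replication genes, with those under the filter, neighboring 5 and neighboring 3 each deviated by 0.19. Neighboring 1, 2 and 4 deviated by 0.25 to 0.30 over these 26, so there neighboring 5 did not stand alone. For RFC3 (7.71), RRM1 (8.22) and RRM2 (4.97) neighboring 5 stood among the other neighboring arrays, while for CDKN1A and GADD45B it lay within the control range.

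Other genes of the same processes gave the surroundings of these values. Of 26 further replication genes above the filter, 9 rose and 1 fell (3 and 1 with all 10 arrays), with a median difference of 0.25, where 20.2% of all genes above the filter rose and 11.5% fell (8.26% and 5.02% with all 10 arrays). Among them were the polymerase subunits POLD3 (0.41, adjusted p = 0.0158) and POLE3 (0.49, adjusted p = 0.0144), calls lost with all 10 arrays (0.108 and 0.0636). RFC2, another clamp loader subunit, differed by 0.21 (adjusted p = 0.0962). POLD3, POLE3 and RFC2 were named after their values were seen. UHRF1, which directs DNA methylation to newly copied DNA, rose 2.25-fold (adjusted p = 0.000492), the origin subunit ORC5 rose 1.79-fold (adjusted p = 0.00099) and GMNN, geminin, which blocks CDT1, rose 1.63-fold (adjusted p = 0.0109). UHRF1 was lowest of all arrays on neighboring 5 (5.24), and its call was lost with all 10 arrays (adjusted p = 0.0973). RNASEH2A, the catalytic subunit of RNase H2, fell by 0.66 (adjusted p = 0.00383). Of 8 more under the filter, 2 rose and 0 fell in the fit without it, where 11.1% of all probe sets rose and 9.21% fell. They were CHAF1B (0.77, adjusted p = 0.0145) and DCK (0.46, adjusted p = 0.035), and both calls were lost with all 10 arrays (0.0707 and 0.118).

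Of 17 further mitotic genes above the filter, 3 rose and 2 fell, with a median of -0.08, near the share over all genes above the filter (20.2% and 11.5%). Of 23 more under the filter, 1 rose and 4 fell in the fit without it, where 11.1% of all probe sets rose and 9.21% fell. The 4 were KIF23 (-0.39), BIRC5 (-0.42), ESPL1 (-0.44) and UBE2C (-0.55), with adjusted p of 0.029 to 0.0433, and the 1 was MELK (0.72, adjusted p = 0.0337). With all 10 arrays KIF23 and UBE2C kept their calls, while BIRC5, ESPL1 and MELK lost theirs (adjusted p = 0.101, 0.139 and 0.34). NCAPH and NCAPG, subunits of the same condensin complex, moved apart: NCAPH rose 2.04-fold (adjusted p = 0.0174), and NCAPG fell by 0.76 (adjusted p = 0.0446). The fall of NCAPG did not pass with all 10 arrays (adjusted p = 0.332). HMMR, a spindle protein, rose 1.92-fold (adjusted p = 0.000798) and STMN1, stathmin, which destabilizes microtubules, fell by 1.01 (adjusted p = 0.00793). Control 3 was the highest control in 22 of the 40 measured genes of this list (55.0%).

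Of 12 further G1 genes above the filter 4 rose and 0 fell in limma (0 lower at an unadjusted p under 0.05). Over all genes above the filter 20.2% rose and 11.5% fell. The G1 rises were led by RBL2, the RB1 relative p130, at 1.63-fold (adjusted p = 0.0242, and 0.0559 with all 10 arrays). CDK7, the kinase that activates other cyclin-dependent kinases, rose 1.56-fold (adjusted p = 0.0171). The only further G1 gene under the filter, TFDP2, rose by 0.53 without it (adjusted p = 0.0418), where 11.1% of all probe sets rose. That call was lost with all 10 arrays (adjusted p = 0.111). Genes known to answer p53 or to halt the cycle rose in 8 of 14 cases and fell in 0 (0 lower at an unadjusted p under 0.05). The shares over all genes above the filter were the same 20.2% and 11.5%. The median difference of the 14 genes was 0.63. SESN1 and SESN2, stress-responsive sestrins, rose 3.84-fold (adjusted p = 0.00101) and 2.90-fold (adjusted p = 0.000581). BAX, a promoter of apoptosis, rose 2.71-fold (adjusted p = 0.000346) and BTG1, an antiproliferative gene, 2.26-fold (adjusted p = 0.000385). The 6 that did not pass were PPM1D (0.38), KLF4 (-0.09), TP53I3 (-0.06), PLK2 (-0.08), DDB2 (-0.12) and WEE1 (-0.14). With all 10 arrays 6 of these 14 genes and 1 of the 12 G1 genes rose, where 8.26% of all genes above the filter rose. Of 5 more under the filter 1 passed without it, where 11.1% of all probe sets rose and 9.21% fell. It was SFN, another gene known to answer p53, which fell by 1.11 (a ratio of 0.464, adjusted p = 0.00416). With all 10 arrays the difference of SFN was -1.16 (adjusted p = 0.0205).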

How the data were processed

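Values were measured in 10 samples on the Affymetrix GeneChip Bovine Genome Array. The authors deposited RMA signals on a log2 scale. RMA corrects background, quantile-normalizes the arrays and summarizes the probes of a set, which would hide a change common to most transcripts. The RMA version is not given in the sources used here. Groups and replicate numbers came from the sample titles. The array's 112 own controls were removed. The platform annotation gave a single (1) gene symbol for 13292 of the remaining probe sets, several for 86 and none here for 10638, and only those with a single symbol named a gene.

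A filter on mean signal over the 10 arrays removed the lowest 40% of probe sets (under 5.71) in place of the study's present calls, and all 38 genes of the set that passed had group means above that value in both groups. Differences were tested with limma 3.58.1 in R 4.3.3 (lmFit, eBayes, Benjamini-Hochberg adjustment), a procedure tested on simulated data. Each adjusted p in the text is limma's. The number of arrays limits the precision. The arrays are of separate cows. Per-array values were given for every gene that passed and for CDK1, PCNA, CCND1, CDKN1C and RB1, and up to 4 called genes per further list were named. The genes, lists and tests were chosen with earlier results of these data known. RRM2 and BUB1B were given per array after their values were seen. Alternatives covered the arrays entered, the filter, scaling, variance model, array weights, replicate number as a block, a hybridization covariate, thresholds and the probe set per gene.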

Additional observations from a re-analysis of the deposited data

Results flagged for a closer look

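In 10 of 136 groups of 5 arrays, the highest or lowest value of a probe set stood far from the rest (Dixon's criterion, which chance meets in about 1 of 20 groups). Control 3 was high for FEN1 (7.47, others 7.28 to 7.32), CCND3 (9.15, others 8.57 to 8.72), BUB1B (5.95, others 4.71 to 4.98) and the dimmer AURKB probe set (4.89, others 3.77 to 4.06). Neighboring 5 was high for GADD45B (8.16, others 7.45 to 7.63) and low for the dimmer AURKA probe set (4.55, others 4.70 to 4.74). Among arrays of the fit, CDKN1C was low on neighboring 1 (8.05, others 9.03 to 9.37), BUB1 was high on neighboring 4 (3.56, others 2.65 to 2.86), the dimmer AURKB probe set was low on neighboring 2 (3.56, others 3.76 to 3.79) and the dimmer ORC2 probe set was high on control 5 (4.67, others 4.31 to 4.40). The causes were not tested.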

How the results depend on the processing

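No called difference of a gene in the set changed sign. Over the array 4283 probe sets were called in the fit of 8 arrays, 1806 with all 10 arrays, 1190 with neighboring 5 put back, 1481 and 1161 with the replicate number as a block on 8 and on 10 arrays, 251 with the hybridization covariate and 398 at the stricter rule. The count of 11 replication genes was 7 with all 10 arrays, 7 with neighboring 5 put back, 4 and 6 with the replicate block on 8 and 10 arrays, 0 with the covariate and 0 at the stricter rule. The count of 2 G1 genes was 1 with all 10 arrays, 1 with neighboring 5 put back, 1 with the block on 10 arrays, 0 with the covariate and 0 at the stricter rule. Without the filter 1 mitotic gene, BUB1B, passed, against 0 with it. The count of 2 inhibitor and GADD45 genes was 1 with neighboring 5 put back, 1 with the block on 10 arrays, 1 with the covariate and 1 at the stricter rule, in each case CDKN1A. Leaving out an array gave 2996 to 4249 calls over the array, 8 to 12 replication genes and 2 to 3 G1 genes. TYMS and RRM1 were lost with control 3 put back (adjusted p = 0.208 and 0.0531), and RFC3 under cyclic loess scaling (0.0806) and without the filter (0.0519). Same-numbered arrays come from different cows, and their deviations from the group means correlated weakly (from -0.19 to 0.17). Whether they shared a step of the processing cannot be told from these correlations. The causes were not tested.

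No alternative had the probe-level signals that present calls need. Signal near background limits RRM2, BUB1B and the other genes under the filter, whose log2 differences are compressed.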
